A study of Rattus norvegicus with 47 samples.

Results

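The 45 genes described here are the Wnt ligands, their Frizzled and LRP receptors, secreted inhibitors, and the proteins that carry the signal to the nucleus, as measured in striatum and cerebellum of PCB52-exposed and sham-exposed rats. They were chosen by symbol: genes named Wnt, Fzd, Sfrp, Dkk, Dvl or Axin with a number, together with Lrp5, Lrp6, Tcf7, Tcf7l1, Tcf7l2, Lef1, Ctnnb1, Apc, Rnf43 and Znrf3, where the mean reached 0.5 CPM (counts scaled to the size of the library) in either region. Of 15319 genes in both count tables, 47 carried such a symbol and 45 reached the minimum. They comprise 16 ligands, 12 receptors, 7 secreted inhibitors, 6 cytoplasmic mediators, 3 nuclear factors and Rnf43, a ubiquitin ligase that removes Frizzled receptors from the membrane. The minimum was met in both regions by 39 genes, in striatum only by Wnt1, Wnt10a, Wnt10b, Dkk2 and Sfrp2, and in cerebellum only by Sfrp5. Just inside it were Sfrp5, with 0.681 CPM in cerebellum, and Dkk2, with 0.855 CPM in striatum. Outside it were Dkk1, with 0.205 CPM in striatum and a count of 0 in cerebellum, and Wnt3a, listed at 0 in both. Another 5 symbols of the rule (Axin1, Tcf7, Wnt2, Wnt8a and Znrf3) were not analysed here.

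Wnt proteins are secreted, lipid-modified signals that bind Frizzled receptors. In the beta-catenin branch, Frizzled and the co-receptors LRP5 and LRP6 recruit Dishevelled, which halts the complex of APC and Axin that otherwise has beta-catenin destroyed, and beta-catenin then acts in the nucleus with TCF and LEF factors. In the brain the pathway patterns the embryo, and in adult tissue it acts on synapses and on the barrier of the blood vessels.

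The study exposed 24 male and female Sprague-Dawley rats by nose-only inhalation to PCB52, a polychlorinated biphenyl, or to a sham procedure, for 4 h a day over 28 days. The rats arrived at 28 days of age, and exposure began after assignment at 39 days in males and 42 days in females. Messenger RNA was sequenced from tissue punches, and counts were at hand for 44 of 47 labelled samples. Striatum had 4 sham males, 6 PCB52 males, 6 sham females and 6 PCB52 females, and cerebellum had 5, 5, 6 and 6 in the same order. By the labels, each library is 1 region of 1 rat, named below by its group and animal number. Counts of both regions were at hand for 21 of the rats.

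Total counts ran from 5684508 to 8914523 in striatum and from 6524400 to 15865054 in cerebellum. The tissue labels matched their defining markers: 10 genes of striatal projection neurons summed to 5351 to 13430 CPM in striatum against 381 to 671 CPM in cerebellum, and 7 granule cell genes to 4202 to 6114 CPM in cerebellum against 65.6 to 406 CPM in striatum. Some libraries stood apart in markers of neighbouring tissue. Of the striatal libraries, PCB52 female 20 held choroid plexus genes (list mean 7.43 on the log2 CPM scale, median of the region 1.17). PCB52 female 14 and PCB52 male 19 held genes of cortical neurons (5.24 and 4.97, median 2.77), and sham female 12 held genes of the olfactory bulb. Cortical genes varied by degrees, with PCB52 female 22 at 4.58 and sham female 6 at 4.53. Their summed level was 555 and 594 CPM in PCB52 female 14 and male 19, and 523 CPM in PCB52 female 24. In the cerebellar libraries the same list summed to 1137 to 1942 CPM, so it is not particular to cortex. PCB52 female 22 held granule cell genes (5.57 against 1.06) and sham female 2 held blood genes. The part of cerebellar tissue in the cortical list value of PCB52 female 22 was not tested. In cerebellum, sham male 1 held choroid plexus genes, and PCB52 female 20 and male 23 were high in ribosomal protein genes. Transcripts of both sexes were found in 5 sham libraries, 4 of cerebellum (females 8 and 10, males 9 and 11) and 1 of striatum (male 3). These were tissue punches, in which a lower level in each cell and fewer cells that express a gene cannot be told apart.

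The Wnt genes differed widely between the 2 regions in sham rats. In the 21 sham libraries, 33 of the 42 members tested passed an adjusted p of 0.05 (edgeR's quasi-likelihood test, Benjamini-Hochberg adjustment over 12446 genes). That is 78.6% of the members tested, beside 69.8% of all genes, so passing was common in the whole table too. Of the 33, 20 were higher in striatum, where 34.3% of all genes were higher, and 13 were higher in cerebellum, where 35.5% of all genes were. The median log2 fold change (striatum over cerebellum) was 0.37 over members and -0.03 over all genes. Of the members that met the minimum in both regions, 38 were tested and 29 passed, 16 of them higher in striatum and 13 in cerebellum. The other 4 (Wnt1, Wnt10a, Wnt10b and Sfrp2) met the minimum through striatum alone, so their difference follows from how they were chosen. The median of 0.37 over members includes these 4 and is raised by them. The sham libraries of striatum and cerebellum did not overlap for 15 of the 33 that passed, 35.7% of the members tested, beside 30.8% of all genes. The same 15 did not overlap in the PCB52 libraries either, beside 23.1% of all genes. Of these 15, 11 met the minimum in both regions, 28.9% of the 38 such members tested.

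**Figure D1:**
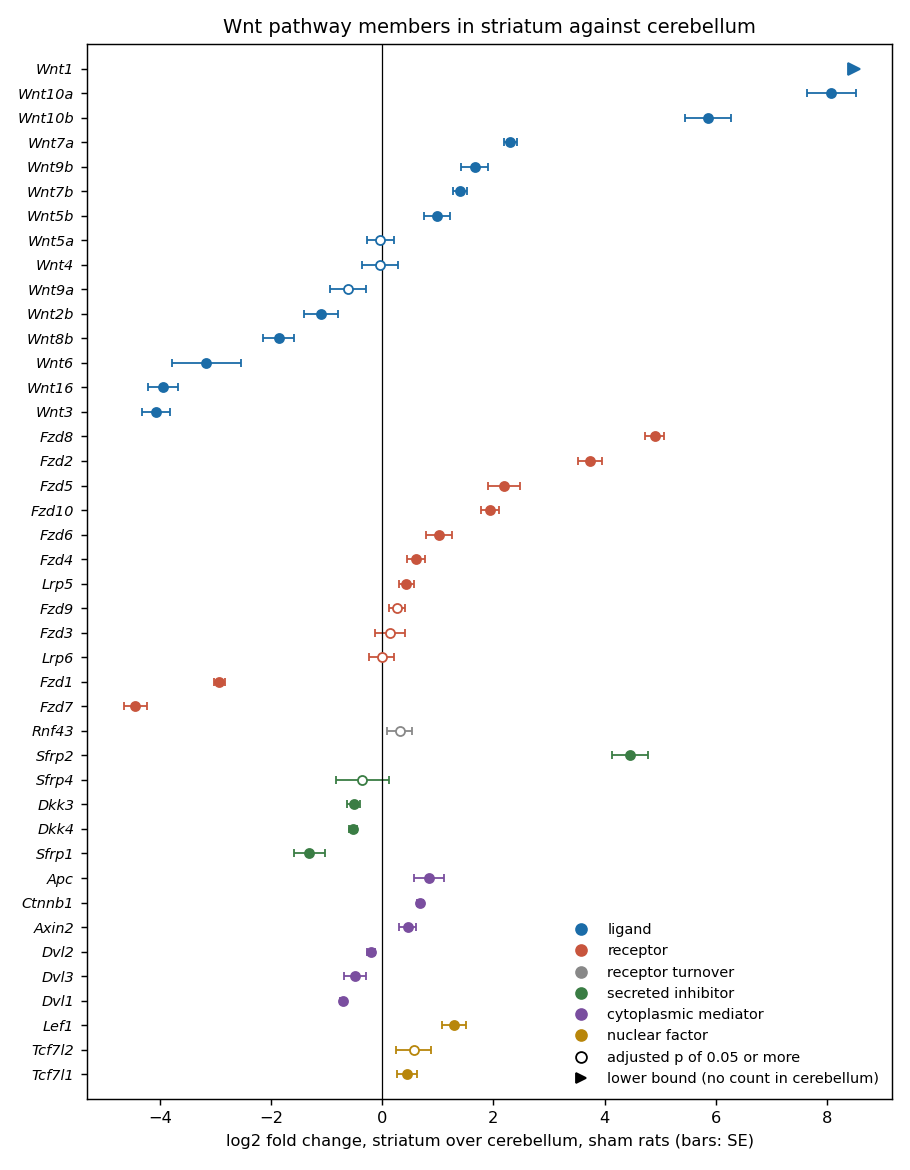
Log2 fold change of striatum over cerebellum in sham rats (horizontal axis, bars are the standard error derived from the F-test) for the 42 members tested, grouped and coloured by role. Filled points passed an adjusted p of 0.05, and the ligands and receptors with counts in both regions reach from -4.44 (Fzd7) to 8.08 (Wnt10a). Wnt1, with no count in cerebellum, is drawn as a triangle at its lower bound over all libraries, and the cytoplasmic mediators stay between -0.71 and 0.85.

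Ligands and receptors were found on both sides. Of 15 ligands tested, 7 were higher in striatum and 5 in cerebellum, and without the 3 ligands that met the minimum through striatum alone, 4 of 12 were higher in striatum and 5 in cerebellum. Of 12 receptors, which all met the minimum in both regions, 7 were higher in striatum and 2 in cerebellum. Of the 4 secreted inhibitors tested that met the minimum in both regions, 0 were higher in striatum and 3 in cerebellum. Over all genes tested, 34.3% were higher in striatum and 35.5% in cerebellum, and whether any role departs from these shares was not tested.

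The promoters of 3 genes are shown to set the letters that TCF and LEF factors bind beside members described here: Axin2, the classical feedback target of beta-catenin signalling, Fzd7, a receptor higher in cerebellum, and Wnt10a, a ligand chosen through its level in striatum. Axin2 was picked as a target gene because its promoter held matches. Fzd7 was picked for its low p in a PCB52 comparison, and Wnt10a for its large difference between regions. Each line gives the 250 bases before the annotated start in RefSeq, 5′ to 3′ along the gene, in the assembly GRCr8. Capitals mark the letters CTTTG, the core that TCF and LEF factors bind, on either strand (CAAAG on the opposite one), and the longer forms CTTTGAA and CTTTGAT that contain it.
Axin2, chr10:94398535-94398784, plus strand: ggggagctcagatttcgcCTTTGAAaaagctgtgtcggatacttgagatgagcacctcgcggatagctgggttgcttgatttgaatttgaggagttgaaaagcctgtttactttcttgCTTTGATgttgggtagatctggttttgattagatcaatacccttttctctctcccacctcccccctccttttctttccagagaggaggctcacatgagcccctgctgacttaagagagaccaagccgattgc
Fzd7, chr9:68425288-68425537, plus strand: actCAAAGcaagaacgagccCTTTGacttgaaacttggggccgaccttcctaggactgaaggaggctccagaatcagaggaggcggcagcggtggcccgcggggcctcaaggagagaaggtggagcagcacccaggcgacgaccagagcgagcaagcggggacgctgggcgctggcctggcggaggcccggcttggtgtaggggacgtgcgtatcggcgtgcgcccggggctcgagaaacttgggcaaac
Wnt10a, chr9:83798344-83798593, plus strand: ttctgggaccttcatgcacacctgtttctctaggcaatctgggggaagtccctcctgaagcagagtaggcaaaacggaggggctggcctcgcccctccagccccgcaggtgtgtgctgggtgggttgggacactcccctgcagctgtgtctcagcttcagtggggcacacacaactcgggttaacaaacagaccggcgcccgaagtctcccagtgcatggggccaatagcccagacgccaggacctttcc
The Axin2 start in this table lies inside the gene's annotated span. Its window held CTTTGAA at 232 to 226 and CTTTGAT at 132 to 126 bases before the start. Of the 32 members with an entry in the table, Axin2 was the 1 member with a match to either longer form on either strand (3.12%). The share was 7.58% of all promoters and 5.68% of the promoters of genes in the count tables. The core CTTTG alone was in 15 of the 32 and in 48.1% of all promoters. In the Fzd7 window the core was present 2 times, at 247 to 243 on the opposite strand and at 230 to 226 on the gene's strand, and in the Wnt10a window these letters were not present.

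Among the ligands, Wnt10a, which acts through beta-catenin in skin and tooth development, met the minimum through striatum alone. It stood at 31.7 ± 7.35 CPM (SD, n = 10; lowest 18.8, median 30.3, highest 44.6) in sham striatum and at 0.101 ± 0.142 CPM (n = 11; lowest and median 0, highest 0.424) in sham cerebellum. The lowest striatal library was above the highest cerebellar one, and the fitted log2 fold change was 8.08 ± 0.44 (SE). For Wnt10a this difference follows from how it was chosen. Over all 22 cerebellar libraries it had 39 counts, spread over 10 of them, and PCB52 female 24 held the highest level, 2.79 CPM. In striatum its lowest library was PCB52 female 24, with 7.98 CPM, which also had the lowest summed level of the striatal projection neuron list, 5351 CPM.

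Wnt1, the founding ligand of the family and an organiser of the embryonic midbrain and cerebellum, had 875 counts over the 22 striatal libraries and 0 over the 22 cerebellar ones. Its striatal mean was 5.98 CPM, at least 358-fold higher than the cerebellar level that 3 counts over that group would give. In sham striatum it ran from 4.38 to 10.6 CPM with a median of 5.43 CPM. Wnt10b, its neighbour, had 374 counts in striatum and 7 in cerebellum. Both genes met the minimum through striatum alone, so these differences follow from how they were chosen. In GRCr8 both overlap the tubulin gene Tuba1c, and whether counting used strand is not stated in any source at hand, so some of their counts could be reads of Tuba1c.

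Wnt7a, which acts on synapses and on brain blood vessels, stood at 69.2 ± 11.6 CPM (lowest 53.0, median 69.0, highest 94.3) in sham striatum and at 13.98 ± 2.91 CPM (lowest 8.96, median 14.7, highest 17.6) in sham cerebellum. The libraries did not overlap, and Wnt7a was higher in striatum by a log2 fold change of 2.31 ± 0.11 (edgeR adjusted p = 1.71e-21). Wnt7b, its close relative, was higher in striatum by 1.40 ± 0.13 on the log2 scale (edgeR adjusted p = 6.8e-13), also without overlap. Wnt9b (1.66) and Wnt5b (0.98) were higher in striatum as well, with overlapping libraries. Wnt5b and Wnt8b overlap the genes Fbxl14 and Sec31b in GRCr8.

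Wnt3, which Purkinje cells of the cerebellum are known to express, showed the opposite pattern. Sham cerebellum had 17.3 ± 2.86 CPM (lowest 11.7, median 17.5, highest 20.5) and sham striatum 1.01 ± 0.545 CPM (lowest 0, median 1.09, highest 1.92). The log2 fold change was -4.07 ± 0.25 (edgeR adjusted p = 3.38e-18). Wnt16 had 10.2 ± 2.53 CPM (lowest 7.93, median 10.4, highest 16.03) in sham cerebellum and 0.704 ± 0.310 CPM (lowest 0.297, median 0.774, highest 1.12) in sham striatum, a log2 fold change of -3.94 ± 0.27 (edgeR adjusted p = 2.01e-16). For both ligands every cerebellar sham library was above every striatal one.

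Wnt6, a ligand of epithelia, varied widely from library to library within each region. Sham cerebellum had 7.35 ± 4.71 CPM (lowest 2.75, median 5.79, highest 16.7) and sham striatum 1.05 ± 2.27 CPM (lowest 0, median 0.380, highest 7.47). The highest striatal sham library was female 12, the library with olfactory bulb genes, and the log2 fold change of -3.17 ± 0.62 (edgeR adjusted p = 2.1e-05) ranged from -4.40 without it to -2.86 without cerebellum sham male 9. Over all alternatives run for Wnt6, the adjusted p was at most 0.000108. In cerebellum the 6 libraries with the highest Wnt6 were the 6 with the highest summed level of 9 meningeal fibroblast genes, led by PCB52 male 23 (21.2 CPM of Wnt6, 634 CPM for the list). That list spanned 60.9 to 634 CPM over the cerebellar libraries, and 5 of those 6 libraries were also among the 6 highest for Sfrp1. Whether meningeal tissue in the punch sets these levels was not tested. Wnt8b (-1.86) and Wnt2b (-1.10) were also higher in cerebellum, both with means under 2.5 CPM and overlapping libraries.

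Wnt4, Wnt5a and Wnt9a did not pass between the regions, with log2 fold changes of -0.04 ± 0.32, -0.03 ± 0.24 and -0.61 ± 0.33 (edgeR adjusted p = 0.913, 0.917 and 0.0918). Wnt11, which drives the branch without beta-catenin, stood at 0.909 CPM in striatum and 0.702 CPM in cerebellum as library-total means and was too low to be tested.

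Of the Frizzled receptors, Fzd8 had 71.5 ± 12.5 CPM (lowest 43.5, median 75.0, highest 85.9) in sham striatum and 2.43 ± 0.726 CPM (lowest 1.27, median 2.39, highest 3.50) in sham cerebellum, a log2 fold change of 4.90 ± 0.17 (edgeR adjusted p = 1.02e-25). Fzd2 had 52.2 ± 10.1 CPM (lowest 33.6, median 51.8, highest 64.2) in sham striatum and 3.95 ± 1.69 CPM (lowest 1.93, median 3.70, highest 7.49) in sham cerebellum, a log2 fold change of 3.74 ± 0.21 (edgeR adjusted p = 2.98e-19). Neither gene's libraries overlapped between the regions. Fzd5 (2.20), Fzd10 (1.94), Fzd6 (1.03), Fzd4 (0.60) and the co-receptor Lrp5 (0.43) were also higher in striatum on the log2 scale.

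Fzd7 and Fzd1 were the 2 receptors higher in cerebellum. Fzd7, a receptor of stem and progenitor cells, had 45.5 ± 8.72 CPM (lowest 29.6, median 45.2, highest 65.3) in sham cerebellum and 2.06 ± 0.644 CPM (lowest 1.14, median 2.19, highest 3.06) in sham striatum. Its log2 fold change was -4.44 ± 0.21 (edgeR adjusted p = 1.47e-21). Fzd1 had 111.9 ± 8.02 CPM (lowest 97.5, median 115.3, highest 121.9) in sham cerebellum and 14.5 ± 2.14 CPM (lowest 12.2, median 14.5, highest 18.4) in sham striatum, with a log2 fold change of -2.93 ± 0.10 (edgeR adjusted p = 2.66e-26). Both genes were separated without overlap. Fzd9 (0.27 ± 0.14), Fzd3 (0.14 ± 0.27), Lrp6 (-0.01 ± 0.22) and Rnf43 (0.31 ± 0.22) did not pass.

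Secreted Frizzled-related proteins bind Wnt ligands outside the cell, and several but not all Dickkopf proteins block or modulate the LRP co-receptors. Sfrp2 had 5.92 ± 1.54 CPM (lowest 3.83, median 5.93, highest 8.62) in sham striatum and 0.278 ± 0.362 CPM (lowest 0, median 0.139, highest 1.30) in sham cerebellum, with a fitted log2 fold change of 4.46 ± 0.32. Its libraries did not overlap, but it met the minimum through striatum alone, so its difference follows from how it was chosen. Its highest cerebellar value was that of sham male 1, the library with choroid plexus genes. Sfrp1 went the other way, with 20.4 ± 5.29 CPM (lowest 11.2, median 21.1, highest 27.9) in sham cerebellum and 8.11 ± 3.60 CPM (lowest 4.05, median 7.83, highest 15.2) in sham striatum. Its log2 fold change was -1.31 ± 0.28 (edgeR adjusted p = 6.41e-05), with overlapping libraries. Dkk3 (-0.51) and Dkk4 (-0.53) were higher in cerebellum, and Sfrp4 (-0.36 ± 0.47) did not pass.

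Inside the cell the differences were smaller. Ctnnb1, which encodes beta-catenin, had 348.8 ± 23.9 CPM in sham striatum and 218.9 ± 7.61 CPM in sham cerebellum, and was higher in striatum by 0.68 ± 0.06 on the log2 scale (edgeR adjusted p = 1.81e-13). Dvl1, a Dishevelled, had 108.4 ± 8.99 CPM in sham striatum and 178.3 ± 11.7 CPM in sham cerebellum, with a log2 fold change of -0.71 ± 0.05 (edgeR adjusted p = 1.15e-15). Neither gene's libraries overlapped. Apc (0.85) and the feedback target Axin2 (0.46) were higher in striatum, Dvl3 (-0.49) and Dvl2 (-0.20) in cerebellum. Of the nuclear factors, Lef1 (1.29) and Tcf7l1 (0.44) were higher in striatum, and Tcf7l2 (0.57 ± 0.32, edgeR adjusted p = 0.109) did not pass.

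Beyond the members, 68 other genes of the pathway were listed by function, and 55 of them were tested between the regions. In striatum 28 were higher and in cerebellum 15, beside 34.3% and 35.5% of all genes. Of 9 listed target genes tested, 7 were higher in striatum, among them Ccnd1 (0.92 ± 0.14), and Sp5 (-3.05 ± 0.27) and Id2 (-1.55 ± 0.13) were higher in cerebellum. Of the R-spondin arm, which boosts the response by shielding receptors from removal, the receptors Lgr5 (-2.72 ± 0.30) and Lgr4 (-1.02 ± 0.15) were higher in cerebellum and the other 3 genes tested did not pass.

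PCB52 exposure was compared with sham in each sex and region. In 13 of the 14 comparisons made, namely all except the regional one, edgeR's quasi-likelihood test called 0 members at an adjusted p of 0.05. DESeq2 called 0 members in 12 of these 13 and limma voom in 13. In the 6 comparisons of PCB52 with sham, each sex and the mean of both in each region, 0.0% of all genes were called, as in the 2 tests of whether the sexes differed in effect and in the test of whether the regions did. With edgeR, adjusted p-values of 0.05 were thus not reached for any gene tested there. The members are described below by their values and by unadjusted p. In each region 8 members were too low to be tested for PCB52: Wnt11, Dkk2 and Sfrp5 in both, Wnt2b, Wnt3, Wnt6, Wnt8b and Wnt16 in striatum, and Wnt1, Wnt9b, Wnt10a, Wnt10b and Sfrp2 in cerebellum.

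Females in striatum gave the largest number of low unadjusted p-values among the members. Of 37 members tested, 10 had an unadjusted p under 0.05 (27%), beside 13.4% of all genes. Of these 10, 8 had a positive and 2 a negative log2 fold change. The count includes PCB52 females 14 and 20 and sham female 12, which held genes of another tissue. It also includes PCB52 female 22, which held granule cell genes. Without libraries of both kinds, Fzd7 and Sfrp1, the members of lowest p, had log2 fold changes of 0.55 and 0.98. The median log2 fold change was 0.21 over members and -0.0024 over all genes, and 25 of 37 (67.6%) were positive, beside 49.6% of all genes. By role, 5 of 12 receptors, 2 of 6 cytoplasmic mediators, 1 of 3 nuclear factors, 1 of 5 secreted inhibitors and 1 of 10 ligands had an unadjusted p under 0.05. These are Fzd7, Fzd5 and Lrp5 (positive) with Fzd8 and Fzd9 (negative), Dvl1 and Dvl2, Tcf7l2, Sfrp1 and Wnt4. The list of ribosomal protein genes, added after seeing the data, had a mean of 6.95 to 7.81 (median 7.26) on the log2 CPM scale in PCB52 females and of 7.35 to 8.25 (median 7.51) in sham females, and its part in these values was not tested.

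**Figure D2:**
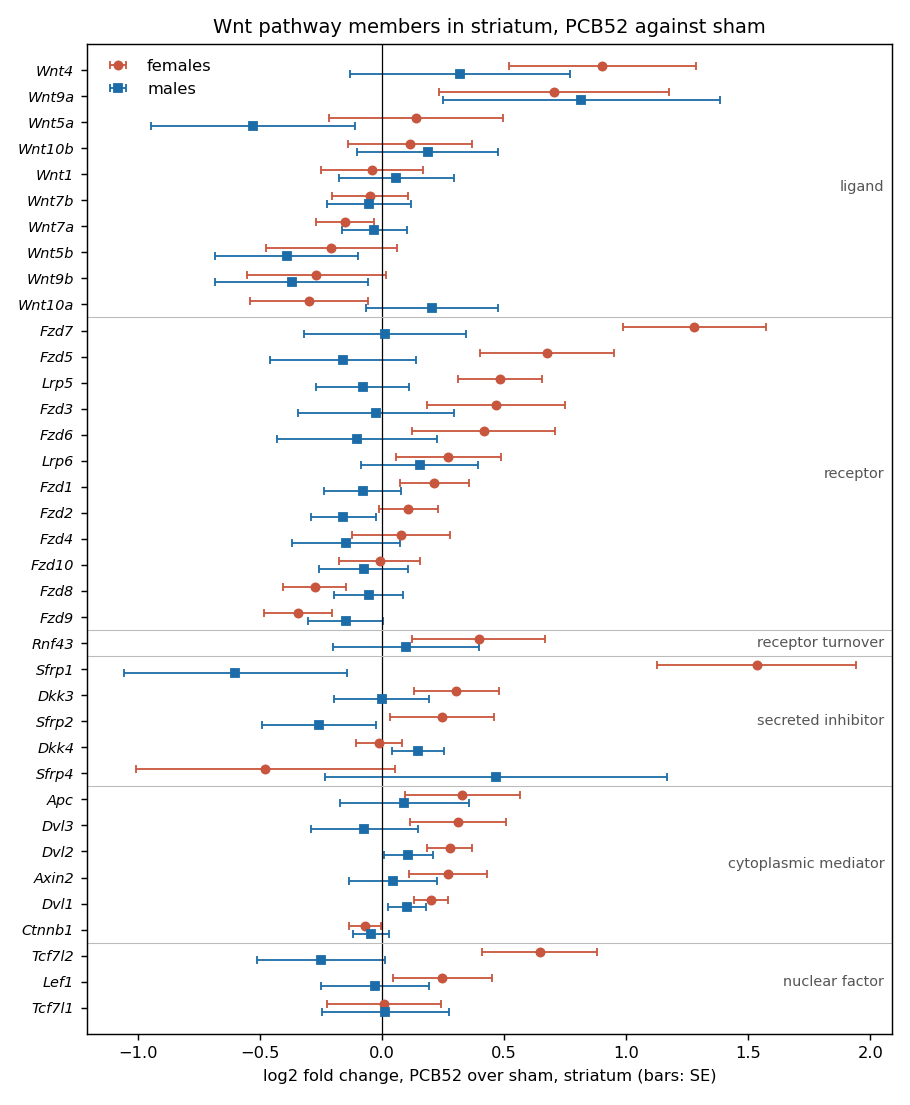
Log2 fold change of PCB52 over sham in striatum (horizontal axis, bars are the standard error) for the 37 members tested, females as circles and males as squares, in order of role. The receptor Fzd7 (1.28) and the inhibitor Sfrp1 (1.53) have the highest values in females, with 0.01 and -0.60 in males.

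Fzd7 had the lowest p. In striatum of sham females it ran from 1.14 to 3.06 CPM with a median of 1.83 CPM, and in PCB52 females from 1.69 to 6.90 CPM with a median of 4.67 CPM. In order of animal number the PCB52 females stood at 5.36 (14), 3.98 (16), 3.25 (18), 6.90 (20), 6.12 (22) and 1.69 CPM (24). All PCB52 females except 24 were above the highest sham female, and males of both groups stayed between 1.85 and 2.93 CPM. The log2 fold change in females was 1.28 ± 0.29 (unadjusted p = 0.00022; edgeR adjusted p = 0.222). DESeq2 gave 1.29 with an adjusted p of 0.0452, and over the other alternatives the adjusted p ranged from 0.137 to 0.847. The share of all genes that DESeq2 called in this comparison is not given here. Of the high libraries, female 20 held choroid plexus genes, female 14 cortical ones and female 22 granule cell ones, with Gabra6, a granule cell receptor subunit, at 67.6 CPM, the next striatal library at 1.95 CPM. Without the libraries with another tissue the log2 fold change was 0.90, and without female 22 as well it was 0.55 (edgeR adjusted p = 0.654 and 0.847).

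Sfrp1 had the next lowest p. Sham females in striatum ran from 4.05 to 11.4 CPM with a median of 5.51 CPM, and PCB52 females from 6.75 to 53.5 CPM with a median of 14.4 CPM. The PCB52 females stood at 21.3 (14), 14.02 (16), 14.9 (18), 53.5 (20), 8.74 (22) and 6.75 CPM (24). The 4 highest were above every sham female, and the other two lay inside the sham range. The log2 fold change was 1.53 ± 0.41 (unadjusted p = 0.00097; edgeR adjusted p = 0.222; DESeq2 adjusted p = 0.0578). Female 20, the highest, had 9 choroid plexus genes summing to 11550 CPM, while the other PCB52 females had a list mean no higher than 1.71 on the log2 scale. Without female 20 the log2 fold change was 0.92, and without every library with another tissue it was 0.88 (edgeR adjusted p = 0.654). Over the alternatives other than DESeq2 the adjusted p ranged from 0.137 to 0.710.

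Dvl2 had narrow values in exposed females, 27.5 to 29.6 CPM (median 29.1), against 19.5 to 29.0 CPM (median 23.9) in sham females. The sham female inside the exposed range was female 10, with 29.0 CPM. Its log2 fold change was 0.28 ± 0.09 (edgeR adjusted p = 0.296), and 0.24 without the libraries with another tissue. Dvl1, the related gene, had 88.0 to 114.2 CPM (median 109.4) in sham females and 114.0 to 131.6 CPM (median 120.0) in PCB52 females, with overlap by a single pair of libraries. Its log2 fold change was 0.20 ± 0.07 (edgeR adjusted p = 0.304). In GRCr8 Dvl1 overlaps Tas1r3.

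**Figure D3:**
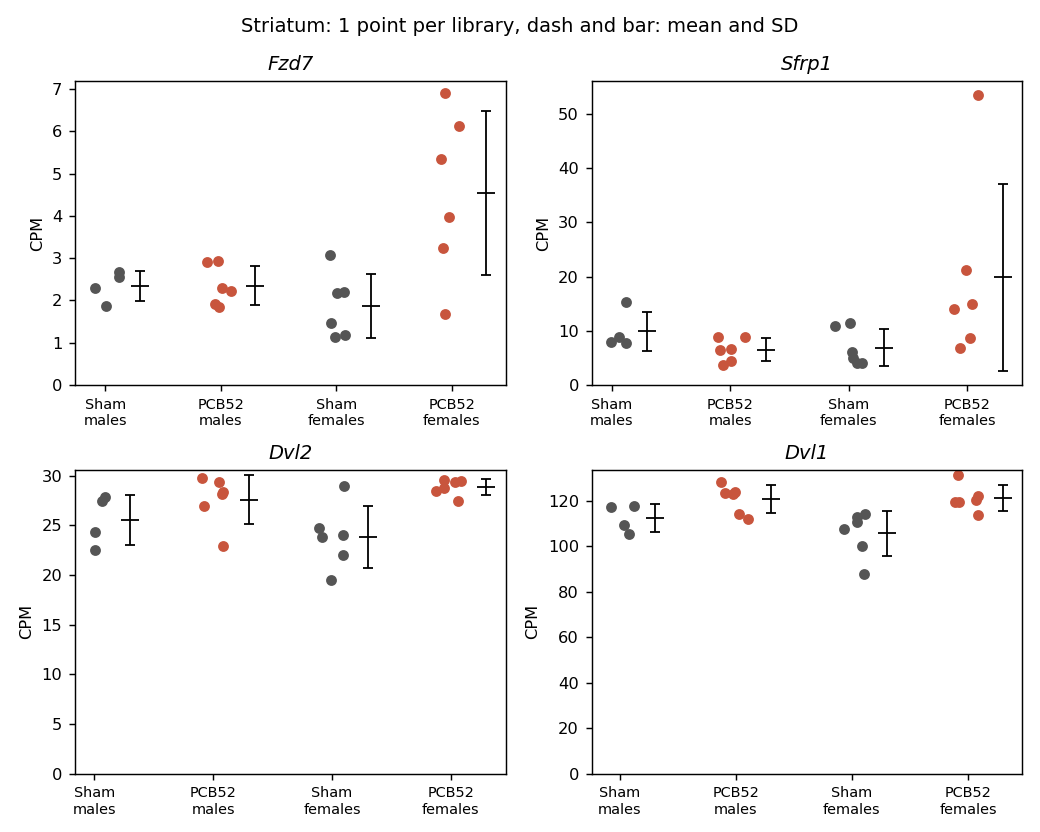
CPM of Fzd7, Sfrp1, Dvl2 and Dvl1 in each striatal library (vertical axis), by group, with the mean and SD beside the points. The Fzd7 and Sfrp1 panels show exposed females spread over 1.69 to 6.90 and 6.75 to 53.5 CPM, and the Dvl2 panel shows them within 27.5 to 29.6 CPM.

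The remaining members with an unadjusted p under 0.05 in striatal females had smaller or more scattered values. Lrp5 had 16.3 ± 3.45 CPM in sham and 22.7 ± 4.62 CPM in PCB52 females (SD over 6 rats per group), which gave 0.48 ± 0.17 on the log2 scale. Tcf7l2 had 7.08 ± 3.06 and 11.1 ± 2.19 CPM (0.65 ± 0.23), and Fzd5 3.53 ± 1.79 and 5.66 ± 1.71 CPM (0.67 ± 0.27). For Tcf7l2 and Fzd5 the lowest sham value was that of female 12, the library with olfactory bulb genes. For Wnt4 (0.90 ± 0.38) PCB52 females 24 and 14 stood at 12.1 and 6.19 CPM, the other PCB52 females at 1.55 to 2.91 CPM and the sham females at 1.76 to 2.94 CPM. Those 2 libraries also had the lowest sums of the striatal projection neuron list, 5351 and 5647 CPM, and the part of this in the Wnt4 value was not tested. Fzd9 (-0.34 ± 0.14) and Fzd8 (-0.28 ± 0.13) had negative values. None of these 6 passed (edgeR adjusted p from 0.304 to 0.362).

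In striatum of males, 0 of 37 members had an unadjusted p under 0.05, beside 0.898% of all genes, and the median log2 fold change was -0.03. The members of lowest p were Wnt9a, Dkk4 and Wnt5b. Wnt9a stood at 0.994, 1.78, 1.83 and 2.71 CPM in sham males 1, 3, 9 and 11 and ran from 1.23 to 6.15 CPM (median 2.18) in PCB52 males, with overlap (log2 fold change 0.82 ± 0.57). Male 19, the library with cortical genes, and male 23 were the 2 high ones, and without male 19 the value was 0.51. Dkk4 stood at 15.1, 18.5, 18.8 and 16.4 CPM in sham males and ran from 17.2 to 22.6 CPM (median 18.9) in PCB52 males (0.15 ± 0.11). Wnt5b stood at 4.08, 6.08, 4.88 and 8.14 CPM in sham males and ran from 3.22 to 5.59 CPM (median 4.29) in PCB52 males (-0.39 ± 0.29). Without sham male 1 the Dkk4 value was 0.09, and without sham male 11 the Wnt5b value was -0.19. For each of these 3 genes the groups overlapped, and edgeR's adjusted p was 1.00.

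As a mean of both sexes in striatum, 4 of 37 members had an unadjusted p under 0.05, beside 5.8% of all genes: Fzd7 (0.64 ± 0.22), Dvl1 (0.15 ± 0.05), Dvl2 (0.19 ± 0.07) and Fzd9 (-0.25 ± 0.10), each with an edgeR adjusted p of 0.774. Dvl1 had values of 0.20 in females and 0.10 in males and Dvl2 of 0.28 and 0.11, while Dvl3, the other Dishevelled gene, had 0.31 in females and -0.07 in males. The female effect minus the male effect had an unadjusted p under 0.05 in 4 of 37 members, all positive, beside 3.88% of all genes. They were Sfrp1 (2.13 ± 0.61), Fzd7 (1.27 ± 0.44), Tcf7l2 (0.90 ± 0.35) and Lrp5 (0.56 ± 0.26), with an edgeR adjusted p of 0.914 each, so a difference between the sexes was not established. Without the libraries with another tissue these differences were 1.59 for Sfrp1 and 0.96 for Fzd7.

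Sexes were also compared within each treatment in striatum. Among sham rats 2 of 37 members had an unadjusted p under 0.05 (2.55% of all genes), and 0.0329% of all genes passed the adjusted threshold. Fzd2 had the lowest p, with 48.2 to 64.2 CPM (median 62.3) in the 4 sham males and 33.6 to 59.3 CPM (median 46.9) in the 6 sham females, a log2 fold change (females over males) of -0.32 ± 0.13 (edgeR adjusted p = 1.00). The sham males stood at 61.5 to 64.2 CPM except male 9, at 48.2 CPM. Among PCB52 rats 6 of 37 members had an unadjusted p under 0.05 (4.69% of all genes), and 0.0412% of all genes passed. Sfrp1 had the lowest p there, with 3.69 to 8.94 CPM (median 6.61) in males and 6.75 to 53.5 CPM (median 14.4) in females, a log2 fold change of 1.61 ± 0.41 (edgeR adjusted p = 0.837), and 1.00 without female 20.

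In cerebellum of males the lowest p-values belonged to Ctnnb1, Apc and Fzd3, the last a receptor of axon guidance, all with negative log2 fold changes. Of 37 members 0 had an unadjusted p under 0.05, beside 14.3% of all genes, and the median over members was -0.10 against 0.01 over all genes. Ctnnb1 stood at 201.5, 220.6, 211.2, 222.1 and 223.8 CPM in sham males 1, 3, 7, 9 and 11 and at 217.0, 186.7, 200.3, 201.0 and 136.9 CPM in PCB52 males 13, 15, 19, 21 and 23. PCB52 male 23 was the lowest and male 13 lay inside the sham range. The log2 fold change was -0.21 ± 0.10 (edgeR adjusted p = 0.313), and -0.11 without male 23. Apc, the scaffold of the destruction complex, stood at 183.3, 71.0, 101.0, 59.8 and 119.8 CPM in the sham males and at 114.3, 24.5, 63.0, 59.1 and 29.7 CPM in the PCB52 males. The groups overlapped, with a log2 fold change of -0.88 ± 0.48 (edgeR adjusted p = 0.313), and -0.60 without sham male 1. Fzd3 stood at 17.8, 5.97, 7.14, 6.50 and 9.99 CPM in sham males and at 10.5, 4.38, 5.15, 2.85 and 4.64 CPM in PCB52 males, with overlap. The log2 fold change of -0.79 ± 0.44 became -0.44 when sham male 1 was left out.

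These members were low in the same libraries, which also stood out in ribosomal protein genes. The 4 cerebellar libraries with the highest mean of ribosomal protein genes, PCB52 males 23 and 15 and PCB52 females 20 and 16 (8.46 to 9.03 on the log2 CPM scale; the other 18 from 6.90 to 7.94), were the 4 lowest libraries for Apc, for Lrp6, for Dvl3 and for Ctnnb1, and held 2 of the 4 lowest for Fzd3. All 4 are PCB52 libraries, so exposure and this measure cannot be told apart in them. Apc was at 24.5 to 30.6 CPM in these 4 and at 53.1 to 183.3 CPM in the others. Without the 2 highest of them the male values were -0.11 for Ctnnb1 and -0.72 for Apc (edgeR adjusted p = 0.615 for both). Over the alternatives run for these 2 values the adjusted p ranged from 0.118 to 0.682.

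**Figure D4:**
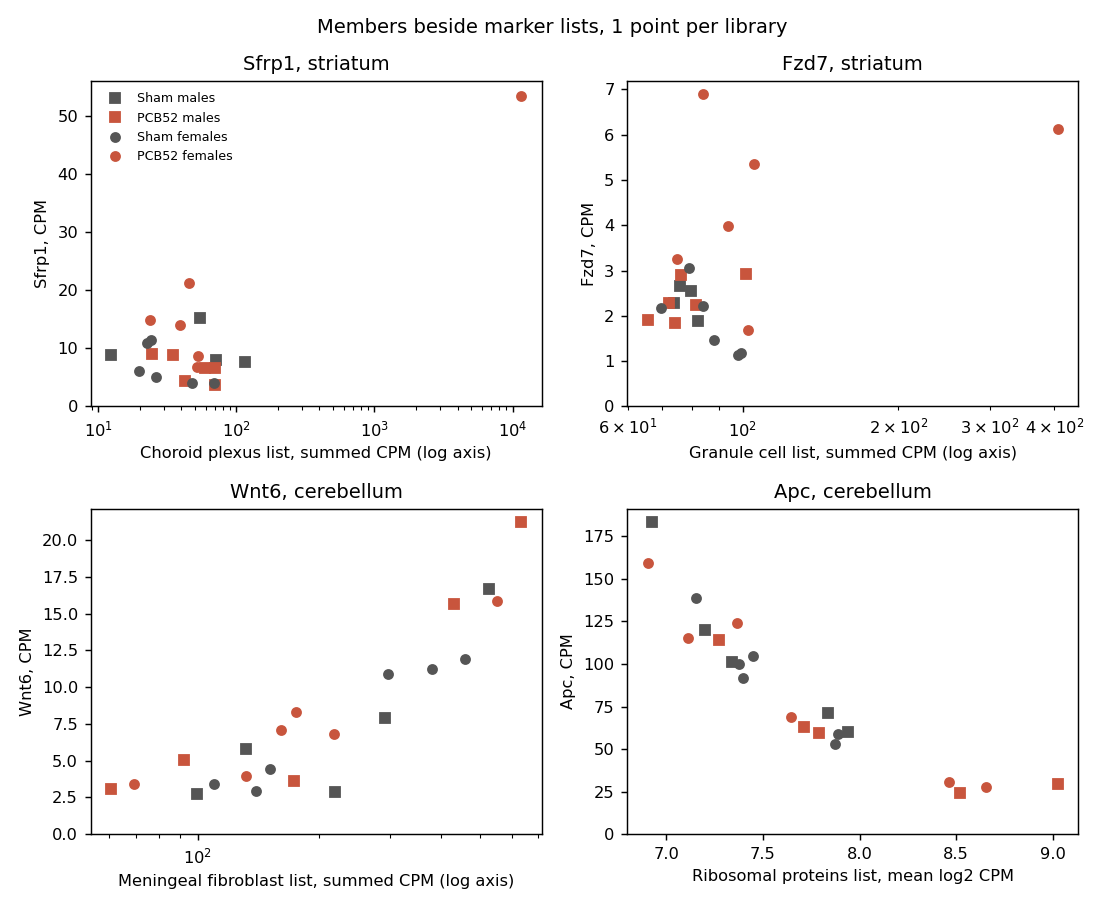
Level of 1 member (vertical axis, CPM) beside a marker list (horizontal axis, summed CPM on a log axis, or mean log2 CPM for the ribosomal list) in each library, coloured by treatment, circles for females and squares for males. PCB52 female 20 stands alone at 53.5 CPM of Sfrp1, PCB52 female 22 lies apart in the granule cell list at 6.12 CPM of Fzd7, and Wnt6 is highest and Apc lowest in the libraries highest in the meningeal and ribosomal lists.

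In cerebellum of females, 1 of 37 members had an unadjusted p under 0.05, beside 3.16% of all genes. That was Dvl1, with 165.5 to 186.5 CPM (median 172.2) in sham and 167.2 to 211.6 CPM (median 197.6) in PCB52 females, a log2 fold change of 0.16 ± 0.07 (edgeR adjusted p = 1.00). The 5 highest libraries of the comparison were PCB52 females, and female 24, at 167.2 CPM, lay inside the sham range. Wnt8b ran from 1.52 to 3.56 CPM (median 2.27) in sham and from 0.975 to 2.63 CPM (median 1.55) in PCB52 females, with overlap (-0.54 ± 0.27). Tcf7l2, a nuclear partner of beta-catenin that also marks thalamic neurons, ran from 3.96 to 6.87 CPM (median 5.00) in sham and from 1.80 to 38.8 CPM (median 4.91) in PCB52 females. Its log2 fold change of 0.92 ± 0.51 rested on female 16, the single library at 38.8 CPM, with the next cerebellar library at 7.74 CPM. Without it the value was -0.27, and limma voom with sample quality weights had -0.20. Female 16 was also the highest cerebellar library for the thalamic genes Slc17a6 (35.7 CPM, next 24.9) and Lhx9 (8.04 CPM, next 1.01). The other 5 measured genes of that list lay inside the range of the other cerebellar libraries, with Prkcd at 87.02 CPM (others 71.0 to 113.5), Ramp3 at 22.1 CPM (8.67 to 30.7), Synpo2 at 1.58 CPM (1.38 to 4.36), Tnnt1 at 0.853 CPM (0 to 2.155) and Gbx2 at 0. The 7 measured genes of that list, of 8 listed, summed to 155.3 CPM in female 16 and to at most 137.5 CPM in the other cerebellar libraries.

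**Figure D5:**
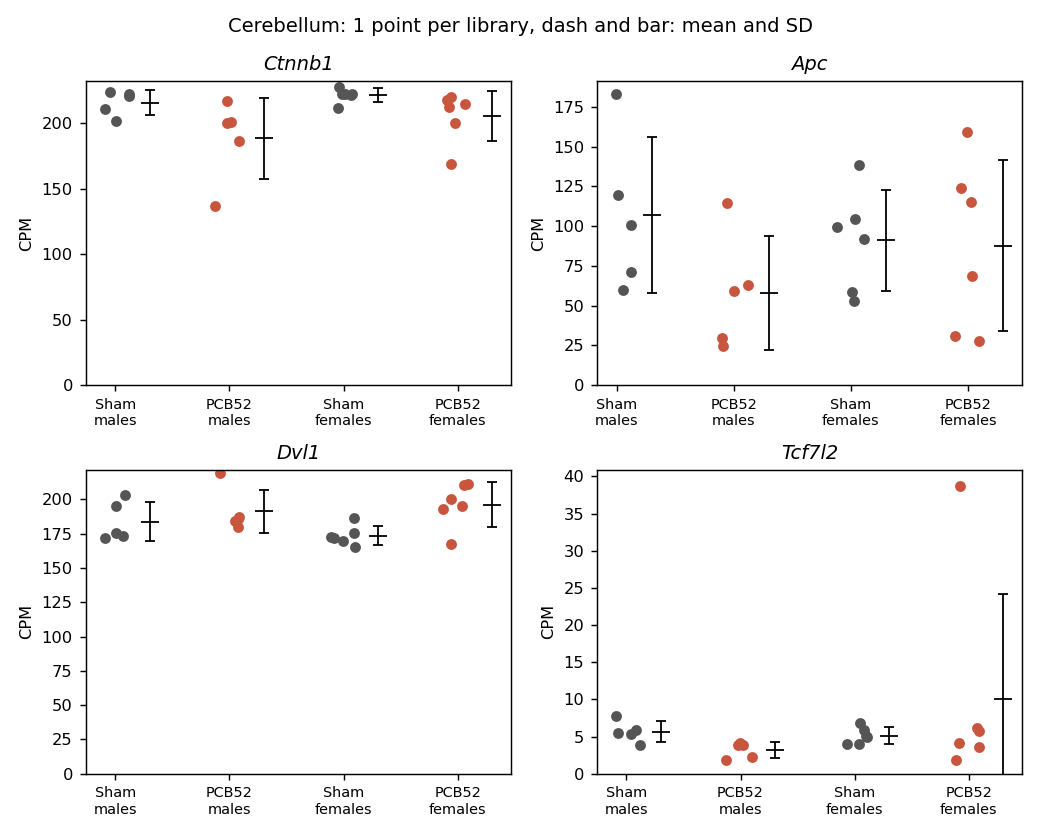
CPM of Ctnnb1, Apc, Dvl1 and Tcf7l2 in each cerebellar library (vertical axis), by group, with the mean and SD beside the points. The Tcf7l2 panel shows 1 PCB52 female at 38.8 CPM and all other libraries at 7.74 CPM or less, and the Ctnnb1 panel shows sham libraries within 201.5 to 227.7 CPM with exposed ones reaching down to 136.9 CPM.

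As a mean of both sexes in cerebellum, 1 of 37 members had an unadjusted p under 0.05, beside 14.8% of all genes. That was Ctnnb1 (-0.17 ± 0.07, edgeR adjusted p = 0.326), at -0.09 without the 2 libraries high in ribosomal protein genes. Dvl1 followed (0.10 ± 0.06, edgeR adjusted p = 0.331). For the female effect minus the male effect, 1 of 37 members had an unadjusted p under 0.05 (2.17% of all genes), Tcf7l2 at 1.73 ± 0.78, and at 0.55 without female 16. Fzd10 came next at -0.69 ± 0.36, with 7.53 to 13.3 CPM (median 10.7) in sham and 6.02 to 13 CPM (median 7.52) in PCB52 females, and 7.37, 13.01, 6.60, 6.08 and 8.16 CPM in sham and 11.5, 10.2, 16.4, 6.28 and 8.79 CPM in PCB52 males. All these groups overlapped.

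Between the sexes in cerebellum, 0 of 37 members had an unadjusted p under 0.05 among sham rats (1.05% of all genes), and 2 of 37 among PCB52 rats (3.24% of all genes). Dvl2 had the lowest p among sham rats, with 25.4 to 29.6 CPM (median 26.2) in females and 24.7 to 35.8 CPM (median 30.5) in males. The log2 fold change was -0.18 ± 0.11, and it was -0.10 when male 7 was left out. Among PCB52 rats it was Tcf7l2 (1.60 ± 0.56, edgeR adjusted p = 0.708), at 0.41 without female 16. At the adjusted threshold 0.0% of all genes passed in both comparisons, where the same comparisons in striatum had 0.0329% and 0.0412%. The lowest edgeR adjusted p of any gene among PCB52 rats was 0.0758. Sham females 8 and 10 and sham males 9 and 11 of cerebellum held transcripts of both sexes. The count of 0 members among sham rats therefore does not show that the sexes were alike. The same libraries enter the cerebellar comparison of the PCB52 effect between females and males.

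The effect of PCB52 in striatum minus that in cerebellum, as a mean of both sexes, was tested in 42 members. An unadjusted p under 0.05 was found for 2 of them, beside 18.3% of all genes, and neither passed the adjusted threshold. Fzd7 had a difference of 0.74 ± 0.28 and Lrp5 one of 0.40 ± 0.19 (edgeR adjusted p = 0.268 for both). In cerebellum Fzd7 had 37.9 to 65.3 CPM (median 44.9) in sham males, 24.9 to 48.8 CPM (median 45.5) in PCB52 males, 29.6 to 50.0 CPM (median 45.8) in sham females and 27.8 to 66.2 CPM (median 49.1) in PCB52 females, all overlapping. Lrp5 in cerebellum had means of 13.1 ± 2.55, 11.2 ± 2.44, 13.7 ± 2.86 and 12.2 ± 2.83 CPM in the same order.

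The other listed genes of the pathway were compared under PCB52 as well. In striatal females 0 of 53 listed genes tested were called, and 10 had an unadjusted p under 0.05, 7 positive and 3 negative, beside 13.4% of all genes. Of 7 genes of planar polarity, the branch that orients cells without beta-catenin, 3 were among them: Vangl2 (0.78 ± 0.27), Celsr3 (0.63 ± 0.23) and Daam1 (0.38 ± 0.15). Of 8 target genes and 4 genes of the R-spondin arm tested, 0 had an unadjusted p under 0.05, and the median over the target genes was 0.14. Axin2 had 22.4 ± 4.73 CPM in sham and 27.0 ± 6.26 CPM in PCB52 females, a log2 fold change of 0.27 ± 0.16. In cerebellum 0 of 52 listed genes were called in either sex (edgeR), with 3 at an unadjusted p under 0.05 in males, beside 14.3% of all genes, and 1 in females, beside 3.16%.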

How the data were processed

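Messenger RNA of tissue punches was enriched by poly(A) capture or removal of ribosomal RNA, per the labels' protocols. The submitters' processing notes name FastQC, HISAT2 and the genome build rn6; no counter, annotation or strand setting is named in these sources. The values the authors deposited are raw counts of whole numbers, 1 table per region with a column for each library. Of 15319 gene identifiers, 15230 (99.4%) matched a symbol in RefSeq's table for GRCr8, used for names, neighbours and promoter sequences.

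Counts of each region were fitted in edgeR 4.0.16 (R 4.3.3; TMM scaling, default filter on low counts, robust quasi-likelihood F-test, two-sided) with 4 group means, testing 12142 genes in striatum and 11690 in cerebellum. Another fit of 44 libraries with 8 group means tested 12446. P-values were adjusted over all genes tested by the Benjamini-Hochberg method, with a threshold of 0.05. Standard errors of log2 fold changes were derived as their absolute value divided by the square root of the F statistic. Printed CPM values were scaled by TMM over the 44 libraries; the minimum for members used library totals. List means are of log2 CPM with a prior count of 2. A library stood apart where a list mean was more than 2 above its region's median (1 for ribosomal genes).

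Values by library are given for the 3 members of lowest p in each comparison of PCB52 with sham in 1 sex, 2 in means, interactions and the difference between regions, and 1 between the sexes. Between regions they are given for 6 members per direction with the largest change among those past the threshold with at least 5 CPM in 1 region; other members are given by level or range. The members, lists and tests were chosen with earlier results of these data known. Alternatives were DESeq2 1.42.0, limma 3.58.1 (voom with sample quality weights), RLE size factors, no filter, only the libraries compared, and leaving out each library, the 5 with choroid plexus, cortical or olfactory bulb genes, or those of cerebellum with transcripts of both sexes. The striatal library with blood genes was left out singly only. Leaving out libraries with granule cell genes, with high ribosomal genes, or in striatum with transcripts of both sexes was chosen after seeing the data. The tests were tried on simulated data with known changes.

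Replicates are separate rats per the labels. Whether each of the 5 sham libraries with transcripts of both sexes came from 1 rat was not tested. No pair of libraries within a group agreed within sampling noise: the smallest chi-square, divided by its degrees of freedom, was 3.49. The animal number pairs the regions of 21 rats. The correlation of the deviations of same-numbered libraries from their group means ran from -0.406 to 0.518, with a median of 0.0915.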

Additional observations from a re-analysis of the deposited data

Results flagged for a closer look

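The named members were examined for a single library far from the rest of its group, by Dixon's gap test at the 95% level, in groups of 4 to 6 libraries. Of 58 pairs of a member and a group, 10 were flagged. Chance flags about 1 in 20 independent groups. These members were picked by low p in the same data and their pairs share libraries, so no excess over chance is read from the count.

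Sfrp1, a secreted inhibitor, was at 53.5 CPM in striatum of PCB52 female 20, the highest of 6, in the library with choroid plexus genes. Tcf7l2, a nuclear factor, was at 38.8 CPM in cerebellum of PCB52 female 16, the highest of 6. That library was the highest of the cerebellar ones for 2 of 7 measured thalamic genes, Slc17a6 and Lhx9, and inside the range of the others for the remaining 5.

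Striatum of sham male 9 was flagged for both Sfrp1, the highest of 4 at 15.2 CPM, and the receptor Fzd2, the lowest of 4 at 48.2 CPM. Dkk4 was the highest of 6 at 22.6 CPM in striatum of PCB52 male 19, the library with cortical genes. In cerebellum, Fzd7 was the highest of 5 at 65.3 CPM in sham male 1, the library with choroid plexus genes, and the lowest of 6 at 29.6 CPM in sham female 12. Dvl1 was the highest of 5 at 219 CPM in PCB52 male 21. Lrp5 was the highest of 5 at 17.6 CPM in sham male 11. Ctnnb1 was the lowest of 6 at 212 CPM in sham female 10, where the other sham females lay between 221.8 and 227.7 CPM. Sham male 11 and sham female 10 of cerebellum are among the libraries with transcripts of both sexes. The part of these library differences in the values was not tested.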

How the results depend on the processing

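Counts of members past the threshold in the 14 comparisons were recomputed 343 times in all, and 342 recomputed counts stayed within 1.5 times of the reported one. In 13 of the 14 comparisons the reported count was 0, where staying within 1.5 times means only 0 again. The smallest edgeR adjusted p of a member in those was 0.222, so these counts had little room to move. The exception among the recomputed counts was striatum of females, where DESeq2 called 1 member, Fzd7. How many of all genes DESeq2 called there is not given here, so the call is not read as particular to Fzd7. In the regional comparison the count ran from 32 to 34 when 1 sham library was left out, and 33 of the 33 called members were also called by DESeq2 (35 in all), RLE size factors (34), no filter (34) and limma voom (36). With the animal as a replicate block 32 were called, all among the 33, and the paired fit left the count of 0 for the difference between the regions' effects as it was. The values of single named members kept their direction in all settings except for Tcf7l2 in cerebellar females. Its log2 fold change was -0.20 with limma voom and ran from -0.27 to 1.13 when 1 library was left out, the lowest without PCB52 female 16. The cause was not tested.

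At 5684508 to 15865054 counts a library, Wnt11, Dkk2 and Sfrp5 did not pass the filter on low counts in any comparison, and another 5 members a region did not pass it for PCB52. Intervals from the fits cover the spread between 4 to 6 rats a group. Some libraries held marker genes of another tissue or transcripts of both sexes, and the part of these in the results was not tested beyond leaving the libraries out. Labelled samples other than the 44 with counts were not analysed here.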

Other observations

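Other genes of the pathway, taken from the lists by lowest p after their values were seen, also differed between striatum and cerebellum of sham rats. Kremen1, a receptor of Dickkopf proteins, was higher in striatum by a log2 fold change of 4.22 ± 0.14 (edgeR adjusted p = 1.74e-26). Wif1, a secreted inhibitor that binds Wnt proteins, was higher in cerebellum, with a log2 fold change of -2.59 ± 0.13 (edgeR adjusted p = 1.44e-20). Porcn, the enzyme that attaches the lipid to Wnt proteins, was also higher in cerebellum (-1.26 ± 0.06, edgeR adjusted p = 1.42e-22), and Wls, which carries them to the membrane, did not pass (-0.13 ± 0.10, edgeR adjusted p = 0.24). Tle2 (-3.05 ± 0.17) was higher in cerebellum and Tle4 (1.75 ± 0.12) in striatum, both co-repressors that bind TCF and LEF factors.

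Members too low to be tested were given as levels only. Sfrp5 had 23 counts over 6 of the 22 striatal libraries, and in sham striatum its highest library stood at 2.76 CPM with a median of 0. Dkk2 ran from 0.221 to 2.15 CPM in sham striatum and from 0.135 to 1.27 CPM in sham cerebellum.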
